A study of Homo sapiens with 6 samples.

Results

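Mitochondrial fatty acid oxidation was followed through 10 genes, chosen by name: CPT1A, CPT2, SLC25A20, ACADM, ACADVL, ACADL, HADHA, HADHB, HADH and ACAA2. They are 10 of 22465 genes measured on the arrays, and each was represented by 1 transcript cluster, the unit into which the array summarises its probes. The cells were MDA-MB-231, an established triple-negative breast cancer line, carrying a lentiviral cDNA for wild-type DAXX (DAXX OE) or for a DAXX mutant with both SUMO-interacting motifs disabled (DSM OE). The DAXX protein carries histones and regulates transcription, and its SUMO-interacting motifs bind the small protein SUMO. Both groups were selected with puromycin at 2 µg/mL and had 3 arrays each, named replicates 1 to 3, and both therefore carried extra, FLAG-tagged DAXX. RNA was taken after 24 h in complete medium. The vessel is given as a 6-well plate in the sample labels and as a 10 cm plate in the series' design text, in both cases for all samples alike. The sources describe biological replicates but no separate transductions, so p-values measure the spread between cultures of a population. No cells with an empty vector were analysed here, and no change against unmodified cells is given.

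Fatty acids enter the mitochondrial matrix as acylcarnitines. CPT1A joins the fatty acid to carnitine at the outer membrane, the carrier SLC25A20 moves the product across the inner membrane, and CPT2 releases the acyl-CoA inside. An acyl-CoA dehydrogenase, a hydratase, a hydroxyacyl-CoA dehydrogenase and a thiolase then shorten the chain in repeated rounds, each releasing acetyl-CoA. Malonyl-CoA, the first committed product of fatty acid synthesis, inhibits CPT1A, so cells can keep synthesis and oxidation from running at full rate together. The study concerns lipid synthesis driven by the sterol regulatory element-binding proteins (SREBPs), and the comparison asks how the opposing pathway stood when the introduced DAXX had lost these motifs, in cells that keep their own DAXX gene.

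The stretches before 3 start sites are shown because ACAA2 and ACADL were the members past the threshold when an array that stood apart was left out, in opposite directions, and because HADHA and HADHB, the subunits of a single enzyme complex, start from the same stretch of DNA in opposite directions. Each is the 250 bases before a start site in RefSeq on GRCh38.p14, written 5′ to 3′ on the strand of the gene, and all letters are in lower case because none of the motifs searched matched in them. The ACAA2 window lies at chr18:49813534-49813783 on the minus strand, that of ACADL at chr2:210225448-210225697 on the minus strand, and that of HADHB at chr2:26244689-26244938 on the plus strand.
ACAA2: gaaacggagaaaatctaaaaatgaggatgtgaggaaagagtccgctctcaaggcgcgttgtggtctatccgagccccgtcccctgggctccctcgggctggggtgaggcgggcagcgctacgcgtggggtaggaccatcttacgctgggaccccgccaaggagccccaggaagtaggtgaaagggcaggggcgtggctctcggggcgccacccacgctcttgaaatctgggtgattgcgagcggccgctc
ACADL: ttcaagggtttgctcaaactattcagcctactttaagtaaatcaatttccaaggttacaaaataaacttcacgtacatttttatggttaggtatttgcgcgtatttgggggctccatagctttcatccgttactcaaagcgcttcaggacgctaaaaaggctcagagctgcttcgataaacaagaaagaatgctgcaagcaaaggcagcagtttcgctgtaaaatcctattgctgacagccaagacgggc
HADHB: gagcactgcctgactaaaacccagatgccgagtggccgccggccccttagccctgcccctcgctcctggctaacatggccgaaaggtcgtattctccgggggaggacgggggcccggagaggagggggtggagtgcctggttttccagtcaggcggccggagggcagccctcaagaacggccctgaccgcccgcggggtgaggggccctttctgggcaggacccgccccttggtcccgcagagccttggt

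HADHA reads from the opposite strand, and 306 bases separate its start site from that of HADHB, so that 194 bases of the sequence printed for HADHB also lie before HADHA. The ACAA2 window held 63.6% G and C, the ACADL window 42.0% and the HADHB window 69.2%, against a median of 58.0% over 35116 windows of the same length. Motifs were searched on both strands in the 12 windows of the 10 members, since ACADVL and HADH each have more than 1 start site in the table. The SREBP sterol element TCACNCCAC was in 0 of the 12 windows and in 0.88% of all windows, and the E-box CACGTG was in 0 of 12 and 6.34%. The nuclear receptor repeat AGGTCANAGGTCA and the estrogen-related receptor element TCAAGGTCA were each in 0 of 12, and in 0.02% and 0.32% of all windows. The 2 elements share the letters AGGTCA. The CCAAT box, written CCAAT, was in 1 of 12, a window of HADH, and in 32.01% of all windows. These matches describe letters in a short window and say nothing of factor binding.

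The arrays must be described before the values, because DAXX OE replicate 1 stood apart. Its Pearson correlation with the other arrays across genes was 0.973 to 0.980, against 0.996 to 0.998 among those 5, and the standard deviation of its gene signals was 1.63 against 1.82 to 1.85 (log2). All 10 members read lowest on this array, and so did 46.2% of all genes and 77.9% of the 11232 genes above the median level, where 9 of the 10 members lie. Comparisons are therefore given with 6 arrays and without this array, and those of the members as a group, ACAA2, ACADL and the wider genes nearest the threshold also after cyclic loess, a normalization of the 6 arrays that removes a trend with signal level. Signals are log2 values after robust multi-array averaging (RMA), and differences are DSM OE minus DAXX OE throughout. DAXX itself had 6 transcript clusters, and only the brightest is given here. That cluster, which sums endogenous and introduced copies, read 8.68, 8.95 and 8.94 in DAXX OE replicates 1 to 3 and 9.31, 9.36 and 9.36 in DSM OE. Its log2 difference was 0.49 (SE 0.10, limma adjusted p = 0.416, or 0.0144 over the other 5 arrays). After cyclic loess it was 0.37 (adjusted p = 0.0913). The DAXX signal was thus higher on every DSM OE array, so the amount of DAXX and the loss of the motifs cannot be told apart here. All 6 markers of the labelled mesenchymal-like line were bright, from 9.22 for ZEB1 upwards, and markers of other cells were mixed. VIM read 11.8 to 11.9 and AXL 11.7 to 11.9, while the hormone receptor genes ESR1 and PGR read at most 6.01 and 3.92, the adipocyte gene ADIPOQ at most 4.05 and the leukocyte gene PTPRC at most 4.64, beside median signals of 4.26 to 4.46 for the array's background probe sets. Of the luminal list KRT8 and KRT18 were bright as well, at 9.80 to 10.1 and 10.1 to 10.4, and GATA3 read 6.75 to 6.97. EPCAM, also luminal, read 7.20, 7.65 and 7.66 in DAXX OE and 7.87, 7.79 and 7.86 in DSM OE, higher without overlap (difference 0.33, adjusted p = 0.682, and 0.18, adjusted p = 0.126, without DAXX OE replicate 1). The fibroblast gene COL1A1 read 7.18 to 7.40 and the adipocyte gene PLIN1 6.41 to 7.02. The other leukocyte genes, CD14 and CD3E, read above background, at 5.78 to 6.27 and 5.60 to 6.09. CD14 differed by 0.28 and PTPRC by -0.15 with 6 arrays (limma adjusted p = 0.682 for both). Of the 6 mesenchymal-like, 8 luminal and 8 leukocyte, fibroblast and adipocyte markers measured 0 passed the threshold in any of the 3 fits. Without DAXX OE replicate 1 the mesenchymal-like markers had 1 positive and 5 negative differences, with a median of -0.06. Of all genes 0.0623% passed with 6 arrays, 1.25% without DAXX OE replicate 1 and 0.111% after cyclic loess. With 6 arrays 2 luminal markers, EPCAM and KRT8, were higher without overlap. In the other list 2 were higher, CD14 and COL1A1, and 1 lower, PTPRC. Of the mesenchymal-like markers 1, MSN, was higher and 0 were lower. Among all 22465 genes 3079 were higher and 1236 lower without overlap. Without DAXX OE replicate 1, 1 mesenchymal-like marker was higher and 3 lower without overlap. In that fit 2 luminal markers were higher and 0 lower, and in the leukocyte, fibroblast and adipocyte list 4 were higher and 1 lower. Among all genes 4071 were higher and 3022 lower in that fit. The part of the markers in the members' values was not tested.

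No member passed the threshold with 6 arrays. Of the 10 members 9 had a positive difference and 1, ACADL, a negative one. Positive differences were had by 51.3% of all 22465 genes and by 75.9% of genes above the median level, where 9 of the members lie. The median over the members was 0.16 (log2), where that over all genes was 0.01 and over genes above the median level 0.10. The moderated test in limma called 0 of 10 at an adjusted p under 0.05, against 0.0623% of all genes, and 1 of 10, ACAA2, at an unadjusted p under 0.05, against 5.16% of all genes. The groups did not overlap in 1 member, ACAA2, which was higher in DSM OE, as were 13.7% of all genes. The unmoderated test that the study's methods name also gave 0 calls after adjustment and 1 member at an unadjusted p under 0.05. In all of these bulk samples, a change in how many cells express a gene and in RNA per cell cannot be told apart.

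Without DAXX OE replicate 1 the picture narrowed to ACAA2 and ACADL. The median over the members was 0.01, with 5 members positive and 5 negative, beside a median of 0.00 over all genes with 52.4% positive. Past the threshold in limma were 2 of 10 members, ACAA2 as higher and ACADL as lower in DSM OE, against 1.25% of all genes in either direction, and the same 2 had an unadjusted p under 0.05, against 15.1% of all genes. These were also the members whose groups did not overlap, 1 higher, as were 18.1% of all genes, and 1 lower, as were 13.5%. After cyclic loess 6 members were positive and 4 negative, with a median of 0.05, where 48.2% of all genes were positive. In that fit 0 of 10 passed the threshold, against 0.111% of all genes. The fit of 5 arrays has only replicates 2 and 3 in DAXX OE, and the array was set aside on the strength of these data. Its p-values may therefore be too small and its intervals too narrow.

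**Figure D1:**
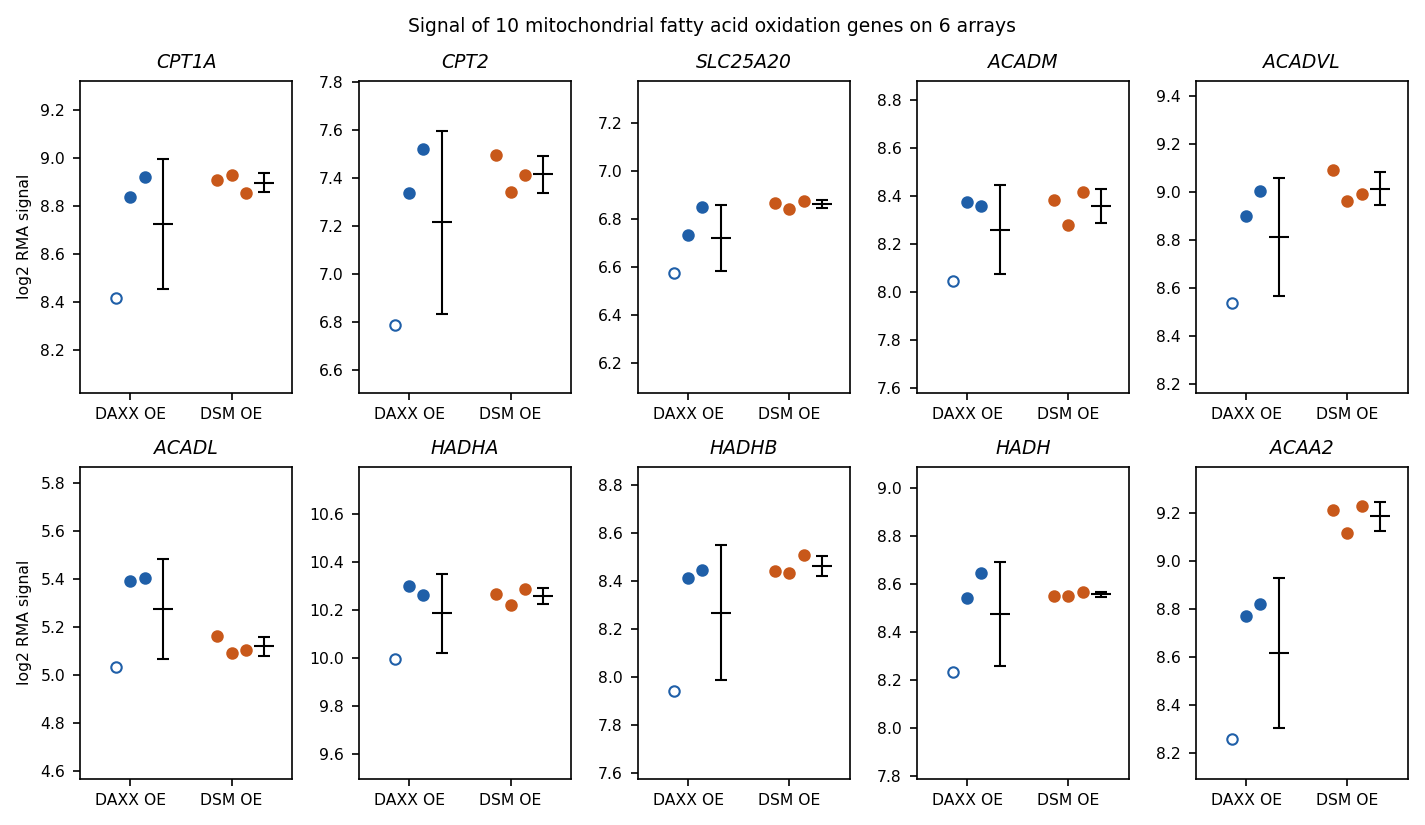
Log2 RMA signal of each member on each array, on axes of equal span. Points are replicates 1 to 3 from left to right, the open circle is DAXX OE replicate 1, and bars are the mean and SD (n = 3). DAXX OE replicate 1 is the lowest of 6 arrays in every panel, and only in ACAA2 do the groups not overlap.

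The thiolase gene ACAA2 was the member that differed most. ACAA2 encodes the mitochondrial 3-ketoacyl-CoA thiolase, which splits off acetyl-CoA at the end of each round. Its signals were 8.26, 8.77 and 8.82 in DAXX OE replicates 1 to 3 and 9.21, 9.12 and 9.23 in DSM OE. Every DSM OE array lay above every DAXX OE array. The SD was 0.06 within DSM OE (n = 3) and 0.31 within DAXX OE (n = 3), but 0.035 over DAXX OE replicates 2 and 3 alone. The difference was 0.57 (SE 0.15, 95% confidence interval 0.21 to 0.93, limma adjusted p = 0.682, unadjusted p = 0.00704), a 1.48-fold higher level in DSM OE. Without DAXX OE replicate 1 it was 0.39 (SE 0.05, interval 0.27 to 0.51, adjusted p = 0.0287), a 1.31-fold higher level. After cyclic loess it was 0.45 (interval 0.28 to 0.61, adjusted p = 0.110). The sign was positive and the size at least 0.39 in all 16 alternative fits, but several of them leave the difference at 0.57 by construction. The limma adjusted p was under 0.05 in 3 of them. Those left out DAXX OE replicate 1 or gave it a weight of 0.028 or 0.039, so they are not separate checks.

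Setting ACAA2 against the other members within an array removes what is common to them on that array. ACAA2 exceeded the mean of the other 9 members by 0.53, 0.68 and 0.67 in DAXX OE and by 1.08, 1.05 and 1.12 in DSM OE. The offset has no meaning of its own, since clusters differ in probe affinity, but it was larger on every DSM OE array, with a gap of 0.37 between the groups against an SD of 0.08 and 0.04 (n = 3). After cyclic loess the same quantity was 0.65, 0.66 and 0.64 in DAXX OE and 1.06, 1.04 and 1.09 in DSM OE. DAXX OE replicate 1 then lay with its group in this quantity, but not in its parts. ACAA2 itself still read 8.56 there, against 8.74 and 8.76 on replicates 2 and 3. Among the others, ACADL (4.77 against 5.44 and 5.45) and CPT2 (6.94 against 7.34 and 7.49) also stayed low, and ACADM (8.36 against 8.35 and 8.29) did not. ACAA2 minus HADHB, the trifunctional protein's own thiolase subunit, was 0.31, 0.36 and 0.37 in DAXX OE and 0.77, 0.68 and 0.72 in DSM OE. No test is given for these quantities, because ACAA2 was picked out with its difference known.

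**Figure D2:**
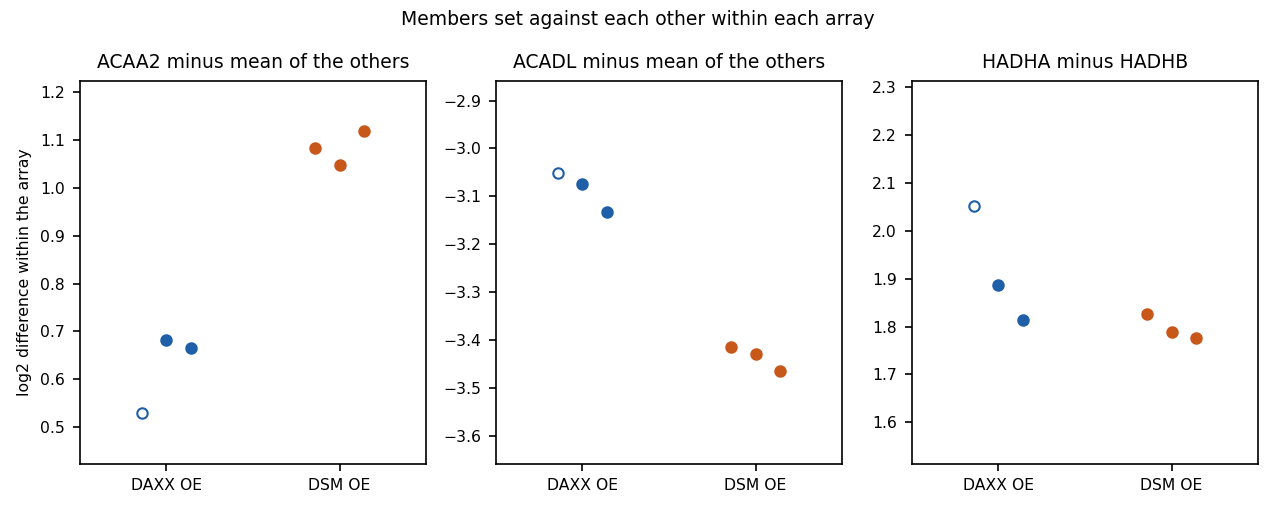
Differences between members within each array (log2, vertical axes of equal span), with replicates 1 to 3 from left to right in each group and DAXX OE replicate 1 as the open circle. ACAA2 minus the mean of the other 9 is 0.53 to 0.68 in DAXX OE and 1.05 to 1.12 in DSM OE, ACADL minus the mean of the other 9 is -3.13 to -3.05 and -3.47 to -3.41, and HADHA minus HADHB overlaps between the groups.

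ACAA2 lies on chromosome 18, and its neighbours in the RefSeq gene order were looked up after these values were seen. LIPG, which encodes endothelial lipase and is next to ACAA2 on 1 side, differed by 0.34 (adjusted p = 0.682) over all arrays and by 0.45 (adjusted p = 0.0327) over 5, and by 0.42 (adjusted p = 0.101) after cyclic loess. DYM, the third measured protein-coding gene on that side, gave 0.43 and 0.25 (adjusted p = 0.682 and 0.0617). MYO5B, the next gene on the other side, gave 0.06 and 0.13 (adjusted p = 0.776 and 0.244). All 6 of the nearest measured protein-coding genes, 3 on each side, had positive differences in both fits. Over the 241 protein-coding genes measured on chromosome 18, the median without DAXX OE replicate 1 was 0.07 with 72.6% positive, against 0.01 and 54.2% over 17085 protein-coding genes. The part of the chromosome in the ACAA2 difference was not tested.

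ACADL was the only member with a negative difference in the 6-array fit. ACADL encodes the long-chain acyl-CoA dehydrogenase, which takes the first step of a round. Its signals were 5.04, 5.39 and 5.40 in DAXX OE and 5.17, 5.09 and 5.11 in DSM OE. DAXX OE replicates 2 and 3 lay above all 3 DSM OE arrays, and DAXX OE replicate 1 lay below them. The difference was -0.16 with 6 arrays (SE 0.12, interval -0.43 to 0.12, adjusted p = 0.682). It was -0.28 with DAXX OE replicate 1 left out (SE 0.04, interval -0.38 to -0.18, adjusted p = 0.0440), a 1.21-fold lower level. After cyclic loess it was -0.05 (interval -0.51 to 0.41, adjusted p = 0.901), with DAXX OE replicate 1 at 4.77 and replicates 2 and 3 at 5.44 and 5.45. ACADL was also the only member below the median level of genes. Its signals of 5.04 to 5.40 lay not far above the background probe sets, whose medians were 4.26 to 4.46. Against the mean of the other 9 members it read -3.05, -3.08 and -3.13 in DAXX OE and -3.41, -3.43 and -3.47 in DSM OE, which separates the groups, but after cyclic loess DAXX OE replicate 1 read -3.57, below all DSM OE arrays.

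The other acyl-CoA dehydrogenases did not follow ACADL. ACADVL, the very-long-chain enzyme of the inner membrane, read 8.53, 8.90 and 9.00 in DAXX OE and 9.09, 8.96 and 8.99 in DSM OE. Its groups overlapped, and the difference was 0.20 (SE 0.13, adjusted p = 0.682) with 6 arrays and 0.06 (interval -0.08 to 0.20, adjusted p = 0.707) without DAXX OE replicate 1. ACADM, the medium-chain enzyme, read 8.04, 8.37 and 8.36 against 8.38, 8.28 and 8.41. It differed by 0.10 with 6 arrays and by -0.01 without that array (interval -0.13 to 0.12), so its sign rests on 1 array.

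The carnitine shuttle genes were close to equal once DAXX OE replicate 1 was set aside. CPT1A, the regulated entry step, read 8.41, 8.84 and 8.92 in DAXX OE and 8.91, 8.93 and 8.85 in DSM OE. Replicates 2 and 3 of DAXX OE lay within or just below the range of DSM OE, and the difference went from 0.17 (SE 0.14, interval -0.15 to 0.50) with 6 arrays to 0.02 (SE 0.05, interval -0.10 to 0.13) with 5. CPT2 had the largest drop on DAXX OE replicate 1, reading 6.79 there and 7.34 and 7.52 on replicates 2 and 3, against 7.49, 7.34 and 7.41 in DSM OE. Its difference was 0.20 (interval -0.22 to 0.62) with 6 arrays and -0.01 (interval -0.19 to 0.16) with 5. The carrier gene SLC25A20 read 6.57, 6.73 and 6.85 against 6.87, 6.84 and 6.88, so 2 of the DSM OE arrays lay above every DAXX OE array. Its difference was 0.14 (interval -0.08 to 0.36) with 6 arrays and 0.07 (interval -0.05 to 0.19) with 5. It was positive in all 16 alternative fits, as were those of CPT1A, ACADVL, HADHB and ACAA2, though several of these fits leave the difference unchanged by construction. None of the shuttle genes passed the threshold in either fit (adjusted p from 0.571 to 0.963 in limma over both).

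HADHA and HADHB encode the alpha and beta subunits of the mitochondrial trifunctional protein, which carries out the last steps of a round on long chains. HADHA read 10.0, 10.3 and 10.3 in DAXX OE and 10.3, 10.2 and 10.3 in DSM OE, with a difference of 0.07 (interval -0.17 to 0.31) with 6 arrays and -0.02 (interval -0.12 to 0.08) with 5. HADHB read 7.95, 8.42 and 8.45 against 8.44, 8.44 and 8.51, a difference of 0.19 (interval -0.14 to 0.53) and 0.03 (interval -0.07 to 0.14). The groups overlapped for both subunits. HADHA minus HADHB within an array was 2.05, 1.89 and 1.81 in DAXX OE and 1.83, 1.79 and 1.78 in DSM OE, so DAXX OE replicate 1 read highest and the other 5 arrays lay within a narrow range. HADH, the hydroxyacyl-CoA dehydrogenase of the matrix that acts on shorter chains, read 8.23, 8.54 and 8.65 against 8.55, 8.55 and 8.57. It differed by 0.08 (interval -0.19 to 0.36) and by -0.04 (interval -0.15 to 0.07).

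The intervals bound the differences that these arrays leave possible for each gene. With 6 arrays the upper bounds for the 8 members other than ACAA2 and ACADL ran from 1.24-fold for HADHA to 1.54-fold for CPT2. Without DAXX OE replicate 1 they ran from 1.05-fold for HADH to 1.15-fold for ACADVL, and the lower bounds from 0.878-fold for CPT2 to 0.969-fold for SLC25A20. These last intervals may be too narrow, because that array was set aside on the strength of these data, so larger differences are not excluded.

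**Figure D3:**
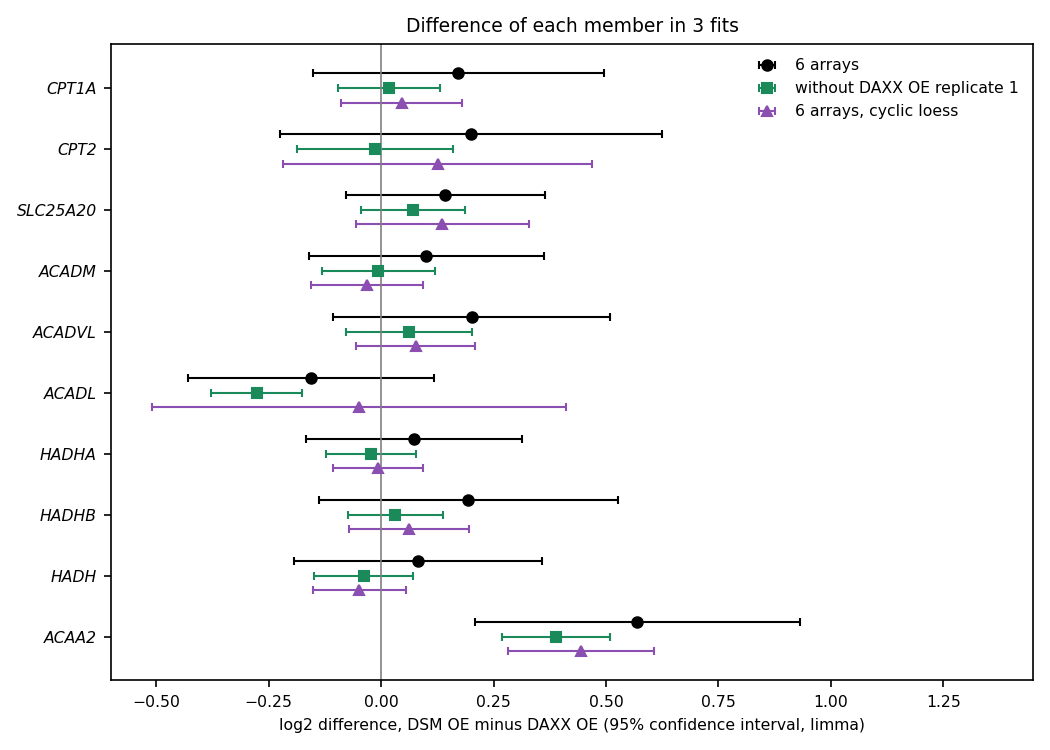
Log2 difference (DSM OE minus DAXX OE) of each member with its 95% confidence interval in limma, with 6 arrays (circles), without DAXX OE replicate 1 (squares) and with 6 arrays after cyclic loess (triangles). The ACAA2 interval lies above 0 in all 3 fits, the ACADL interval lies below 0 only in the fit of 5 arrays, and the other 8 intervals include 0 in all 3.

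The wider pathway was described from 7 further lists of 70 genes, of which 64 were measured. With 6 arrays 50 of the 64 (78.1%) had a positive difference (median 0.11). So had 51.3% of all genes and 75.9% of genes above the median level, where 47 of the 64 lie. The threshold in limma was passed by 0, against 0.0623% of all genes, while 5 (7.81%) had an unadjusted p under 0.05, against 5.16% of all genes. All 5 were higher in DSM OE, and among all genes at that p 848 were higher and 311 lower. Without DAXX OE replicate 1 the median was 0.02, with 40 (62.5%) positive, against 52.4% of all genes. Again 0 passed, against 1.25% of all genes. At an unadjusted p under 0.05 were 10 higher and 4 lower (21.9% together), against 15.1% of all genes, of which 1990 were higher and 1391 lower. After cyclic loess 0 passed, and the lowest limma adjusted p was 0.210. The median was then 0.03, with 39 (60.9%) positive, against 48.2% of all genes. On DAXX OE replicate 1 the signal was the lowest of the 6 arrays in 49 of the 64.

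Among genes of fatty acid uptake and activation (12 measured, median 0.04 with 6 arrays and 0.03 with 5) the largest difference was in SLC27A2, a very-long-chain acyl-CoA synthetase and fatty acid transporter. It read 4.95, 4.97 and 4.92 in DAXX OE and 5.59, 5.29 and 5.38 in DSM OE. Each DSM OE signal was the higher one, and DAXX OE replicate 1 did not stand out. The differences were 0.47 with 6 arrays (SE 0.10, adjusted p = 0.454), 0.47 with 5 (SE 0.09, adjusted p = 0.0796) and 0.58 after cyclic loess (adjusted p = 0.210). SLC27A2 is dim, with DAXX OE signals below those of ACADL and not far above the background probe sets (medians 4.26 to 4.46). It lies below the median level of genes, whereas DAXX OE replicate 1 read lowest in 77.9% of genes above that level. The related SLC27A4 gave 0.36 (adjusted p = 0.682), 0.28 (adjusted p = 0.0826) and 0.23 (adjusted p = 0.296). ACSL4, an acyl-CoA synthetase with a preference for polyunsaturated fatty acids and the brightest of that list, gave -0.10 and -0.19 (adjusted p = 0.691 and 0.176).

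In carnitine supply and shuttle (8 measured, medians 0.06 and 0.02) the other CPT1 genes differed little. CPT1B, the muscle form, read 6.98 to 7.05 on all 6 arrays (difference 0.00, interval -0.17 to 0.18), and CPT1C, the neuronal form, gave 0.09 with 6 arrays and -0.01 with 5. CROT, the peroxisomal carnitine octanoyltransferase, gave 0.16 and -0.10, and ALDH9A1, of carnitine synthesis, -0.03 and -0.16 (adjusted p from 0.158 to 0.910 over both genes and fits).

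Of 13 other mitochondrial beta-oxidation enzymes (medians 0.11 and 0.03), ACADSB differed most. ACADSB encodes the short/branched-chain acyl-CoA dehydrogenase, best known in isoleucine breakdown. It read 7.16, 8.02 and 7.98 in DAXX OE and 8.24, 8.21 and 8.28 in DSM OE, so the groups did not overlap, with differences of 0.52 (SE 0.22, adjusted p = 0.682), 0.24 (SE 0.04, adjusted p = 0.0662) and, after cyclic loess, 0.39 (adjusted p = 0.434). ECI2, an enoyl-CoA isomerase, read 7.79 to 8.003 in DAXX OE and 8.19 to 8.21 in DSM OE without overlap, with differences of 0.27, 0.20 and 0.14 (adjusted p = 0.682, 0.0766 and 0.460). ECHS1, the short-chain enoyl-CoA hydratase, gave 0.06 and -0.02. SLC27A4 and ECI2 are named because they were, with SLC27A2, ACADSB and PPARD, the 5 genes at an unadjusted p under 0.05 with 6 arrays, a choice made after their values were seen.

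Electron transfer flavoproteins pass the electrons of the acyl-CoA dehydrogenases to the respiratory chain, and 4 such genes were measured (medians 0.19 and 0.02). ETFDH, the inner-membrane oxidoreductase, gave 0.38 and 0.15 (adjusted p = 0.682 and 0.184), and ETFA, the alpha subunit of the carrier protein, -0.0025 and -0.10. OXCT1, of ketone body use, gave 0.27 and 0.06, in a list with 2 measured genes. Of 9 peroxisomal genes (medians 0.11 and 0.03) EHHADH, the peroxisomal bifunctional enzyme, gave 0.39 and 0.16 (adjusted p = 0.682 and 0.177), and the transporter gene ABCD3 0.16 and 0.03.

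Of 16 regulators (medians 0.13 and 0.00) PPARD, a nuclear receptor that activates fatty acid oxidation genes, had the largest difference. It read 8.82, 9.02 and 9.16 in DAXX OE and 9.27, 9.27 and 9.26 in DSM OE. The groups did not overlap, and the differences were 0.26 (SE 0.10, adjusted p = 0.682), 0.18 (SE 0.05, adjusted p = 0.194) and 0.15 (adjusted p = 0.434). PRKAA1, a catalytic subunit of AMP-activated protein kinase, gave 0.07 and -0.03.

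**Figure D4:**
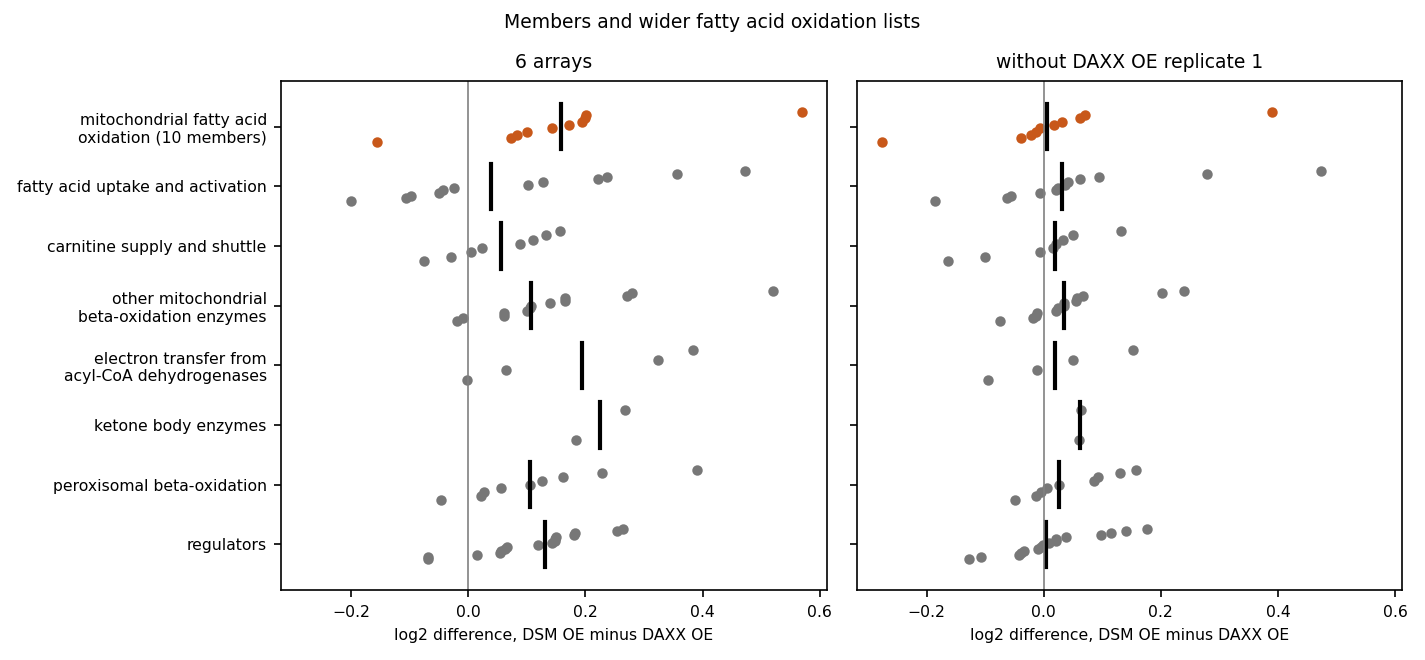
Log2 differences (DSM OE minus DAXX OE, horizontal axis) of the 10 members (orange) and of the 7 wider lists (grey), 1 point per gene, with the median of each list as a black bar. With 6 arrays (left) the median of the members is 0.16 and with DAXX OE replicate 1 left out (right) it is 0.01, where ACAA2 and ACADL lie apart from the other 8.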

How the data were processed

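Total RNA (200 ng) was hybridised to Affymetrix HTA 2.0 arrays. Deposited signals are on the log2 scale, summarised by the authors with RMA, and the submitters' notes name Affymetrix Expression Console 1.3. The methods describe ComBat for arrays collected at different times, but whether these arrays went through it was not stated. An array signal carries no counting depth, so the number of arrays limits precision. Platform annotation gave 1 symbol to 23781 of 25324 listed clusters, and genes took their brightest cluster. DSM OE was tested against DAXX OE over 22465 genes with limma 3.58.1 (R 4.3.3, 2-sided, Benjamini-Hochberg threshold 0.05), with no filter on dim signals. The code was tested on simulated data.

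The members, lists and tests were chosen with earlier results of these data known. All 10 members are named, and from each wider list the gene with the largest difference with 6 arrays, the brightest gene and any gene past the threshold, with CPT1B and CPT1C. SLC27A4, ECI2, the neighbours of ACAA2 and single marker genes were named outside this rule. Alternatives were each array left out, a replicate block, genes above the median level, quantile normalization, cyclic loess, median centring, averaged clusters, weighted arrays, moderation with a trend and robust priors, the methods' unmoderated test and an adjusted p under 0.01. Array weights estimated gene by gene were added after seeing the data.

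Upstream windows came from RefSeq (GRCh38.p14), matched by symbol for 10 of 10 members.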

Additional observations from a re-analysis of the deposited data

How the results depend on the processing

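With 0 of 10 members past the threshold in the 6-array fit, leaving out each array in turn gave 0 to 2, the 2 being ACAA2 and ACADL without DAXX OE replicate 1. Array weights gave 4 members and 27 of the 64 wider genes, but that estimate did not converge, put a weight of 90.7 on DAXX OE replicate 2 and called 9677 genes. Weights estimated gene by gene, chosen after seeing the data, gave 2 members (ACAA2, adjusted p = 0.00479, and ACADL, 0.0157), 6 wider genes and 1068 genes in all. The adjusted p of ACAA2 ran from 6.61e-05 to 0.911 and that of ACADL from 0.000213 to 0.911 over their alternatives. Both kept their sign in every one of them, but several alternatives leave the difference unchanged by construction.

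The sign turned in 4 members, to values near 0. ACADM ranged from -0.0059 to 0.16 with an array left out and was -0.0302 after quantile normalization, -0.0311 after cyclic loess and -0.0078 with array weights. HADH ranged from -0.0386 to 0.17 and was -0.0438 after quantile normalization, -0.0482 after cyclic loess and -0.0141 with gene-by-gene weights. HADHA ranged from -0.0219 to 0.13 and was -0.0069 after cyclic loess, -0.0388 with array weights and -0.0246 with gene-by-gene weights. CPT2 ranged from -0.0137 to 0.35. The negative end of each range is the fit without DAXX OE replicate 1. The cause was not tested.

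The deviations of same-numbered arrays had correlations of -0.05, -0.30 and 0.17. With 3 arrays per group these cannot settle whether the numbers pair the samples, and the sources do not say that they do. With a replicate block 0 members passed, and 40 genes in all against 14. Over all genes, leaving out an array gave 1 to 280 calls and cyclic loess 25. Each member has 1 cluster, so averaging clusters moved none. ACADL, below the median level, gave no value in the fit of genes above it.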
